A study of Mus musculus with 14 samples.

Results

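The Pax family of mouse, Pax1 to Pax9, was followed through 14 poly(A) RNA-seq libraries of J1 embryonic stem (ES) cells. Its members were the rows of both deposited gene-count tables whose Ensembl identifiers map to the symbols Pax1 to Pax9, and all 9 were found among 37991 genes. The cells were of the J1 line (129S4/SvJae background), and each of 7 groups had 2 libraries. In the first experiment, wild-type cells and Dnmt-TKO cells were each given either DMSO, the vehicle, or PRT4165, which the labels call a PRC1 inhibitor. In the second experiment, wild-type, Dnmt-TKO and Tet1-KO Dnmt-TKO cells were sequenced, with no treatment named. Dnmt-TKO is the name used for ES cells that lack the DNA methyltransferases Dnmt1, Dnmt3a and Dnmt3b, and the cells without Tet1, an enzyme that oxidises methylated cytosine, carry that Dnmt-TKO background too. The labels name neither a dose nor a duration of the inhibitor, nor the number of clones behind a genotype. Nor do they say whether the 2 libraries of a group came from separate cultures, so the p-values measure the spread between these libraries, which may be technical.

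Pax proteins are transcription factors that bind DNA through a paired domain and act early in the formation of organs. They fall into subfamilies by structure: Pax1 and Pax9, Pax2 with Pax5 and Pax8, Pax3 and Pax7, and Pax4 and Pax6. Most are silent or nearly so in pluripotent cells, and the promoters of many are known targets of Polycomb complexes, of which PRC1 attaches ubiquitin to a histone, while DNA methylation acts mainly at cytosines followed by guanine (CG).

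Because these treatments act on chromatin and on CG methylation, the sequence just upstream of the start sites is shown for members on which the results turn. RefSeq windows of 250 bases before the start (GRCm38.p6) were at hand for 10 start sites of 7 Pax genes, and those shown overlap no annotated exon. Each is written from 5′ to 3′ on the gene's strand, with every CG in capitals.
Pax6, chr2:105668646-105668895, plus strand: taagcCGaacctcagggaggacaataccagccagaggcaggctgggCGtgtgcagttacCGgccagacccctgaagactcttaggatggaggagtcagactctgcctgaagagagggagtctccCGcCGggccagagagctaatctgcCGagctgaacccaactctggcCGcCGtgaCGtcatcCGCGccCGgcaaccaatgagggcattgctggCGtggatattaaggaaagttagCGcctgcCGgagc
Pax2, upstream start site, chr19:44746351-44746600, plus strand: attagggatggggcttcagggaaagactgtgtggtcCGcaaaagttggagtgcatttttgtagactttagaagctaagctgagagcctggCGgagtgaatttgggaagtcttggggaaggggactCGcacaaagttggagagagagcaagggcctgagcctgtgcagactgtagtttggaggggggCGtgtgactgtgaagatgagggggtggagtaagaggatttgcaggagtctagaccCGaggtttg
Pax2, middle start site, chr19:44755502-44755751, plus strand: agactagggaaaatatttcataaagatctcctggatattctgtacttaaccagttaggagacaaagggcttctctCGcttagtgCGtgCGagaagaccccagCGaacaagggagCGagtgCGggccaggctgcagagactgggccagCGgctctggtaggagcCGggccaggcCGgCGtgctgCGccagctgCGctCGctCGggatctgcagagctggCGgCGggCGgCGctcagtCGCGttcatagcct
Pax8, chr2:24475600-24475849, minus strand: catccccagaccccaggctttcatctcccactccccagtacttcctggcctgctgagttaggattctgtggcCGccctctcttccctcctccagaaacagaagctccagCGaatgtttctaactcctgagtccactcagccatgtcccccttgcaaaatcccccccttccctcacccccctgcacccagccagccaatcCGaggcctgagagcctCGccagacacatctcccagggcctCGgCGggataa
Pax9, chr12:56695221-56695470, plus strand: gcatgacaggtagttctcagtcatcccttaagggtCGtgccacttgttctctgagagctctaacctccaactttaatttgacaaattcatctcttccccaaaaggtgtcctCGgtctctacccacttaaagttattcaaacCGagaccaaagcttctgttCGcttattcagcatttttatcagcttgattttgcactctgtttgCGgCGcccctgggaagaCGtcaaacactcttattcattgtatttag

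The Pax6 window held 15 CG, and 27.3% of the 32851 mouse start sites in the same table had at least as many. The windows of Pax2 held 5 CG at the upstream site, 20 at the middle site and 25 at the most downstream site, whose window lies in an annotated exon and is not shown, that of Pax8 held 6 and that of Pax9 held 7, where the median over all start sites was 6, with quartiles of 2 and 16. The Pax6 window and those of Pax2 at the middle and downstream sites were richer in CG than the typical start site and those of Pax8 and Pax9 were close to it. The palindrome tgaCGtca, the full cAMP response element, occurred once in the Pax6 window shown and in 1.55% of all start sites, and the E-box caCGtg, found in 6.02% of all start sites, was in none of the 10 Pax windows. A match of letters is a description and not a site shown to be used.

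Total counts were 25588815 to 37399837 per library in the first experiment and 23354015 to 41844823 in the second. Dnmt1 lay at 305 to 434 CPM (read counts relative to library size, scaled by the trimmed mean of M-values, TMM) in wild-type libraries and at 116 to 158 in every Dnmt-TKO library, and Tet1 lay at 401 to 791 CPM except in the Tet1-KO libraries, at 134 and 201. Summed over 8 ES-cell markers, the libraries held 3083 to 6098 CPM. The summed level of 9 trophoblast markers differed between groups, at 70.0 to 134 CPM in wild-type libraries, 206 and 208 in Dnmt-TKO libraries of the second experiment, and 626 to 1309 in the remaining libraries. With DMSO, all 9 rose in Dnmt-TKO cells, and 7 of the 8 ES-cell markers fell and 1 rose, where 34.8% of all tested genes rose and 34.2% fell. Tpbpa, also on the trophoblast list, was at 0 in all wild-type groups, and Elf5 had no read in wild-type cells with DMSO. Both passed the filter through other groups, so their calls are description alone. The part of the trophoblast signal in the Pax results was not tested. In bulk RNA, fewer expressing cells and less RNA per cell cannot be told apart.

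Between members, levels were compared per kilobase of exon (CPM per kb, the union of annotated exons), as mean ± SD with n = 2. In wild-type cells given DMSO, Pax2 stood highest at 0.635 ± 0.142, above Pax8 at 0.208 ± 0.011 and Pax1 at 0.113 ± 0.026. Pax6 was the next at 0.062 ± 0.018 and Pax7 followed at 0.020 ± 0.002, while Pax9 had 2 reads and Pax3, Pax4 and Pax5 had none in either library. A count of 0 in this group allows up to 0.0499 CPM (3 reads, counting error only). In Dnmt-TKO cells given DMSO the order opened instead with Pax6 at 2.65 ± 0.039, ahead of Pax8 at 0.280 ± 0.005 and Pax2 at 0.186 ± 0.036, and the libraries of Pax2 overlapped those of Pax1 at 0.157 ± 0.021. Scaled by the longest transcript instead, Pax6 came to 0.163 and 6.99 in the 2 groups and still led in Dnmt-TKO cells, where Pax1 then stood above Pax2, at 0.267 and 0.231.

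The same change of rank was seen in the second experiment. Pax2 was first in wild-type cells at 0.927 ± 0.008, ahead of Pax8 at 0.226 ± 0.093, and every member from Pax6 at 0.038 ± 0.032 downwards overlapped its neighbour in the order. Pax6 was first in Dnmt-TKO cells at 3.67 ± 0.070 and in Tet1-KO Dnmt-TKO cells at 0.970 ± 0.161, each time ahead of Pax8, at 0.404 ± 0.052 and 0.145 ± 0.018. With the inhibitor, Pax2 led in wild-type cells at 1.03 ± 0.151, where Pax8 and Pax9 overlapped at 0.193 ± 0.026 and 0.186 ± 0.024, and Pax6 led in Dnmt-TKO cells at 1.96 ± 0.176, where Pax2 and Pax8 overlapped at 0.398 ± 0.018 and 0.389 ± 0.058. The lowest places were held by Pax4, Pax5 or Pax3 in every group.

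**Figure D1:**
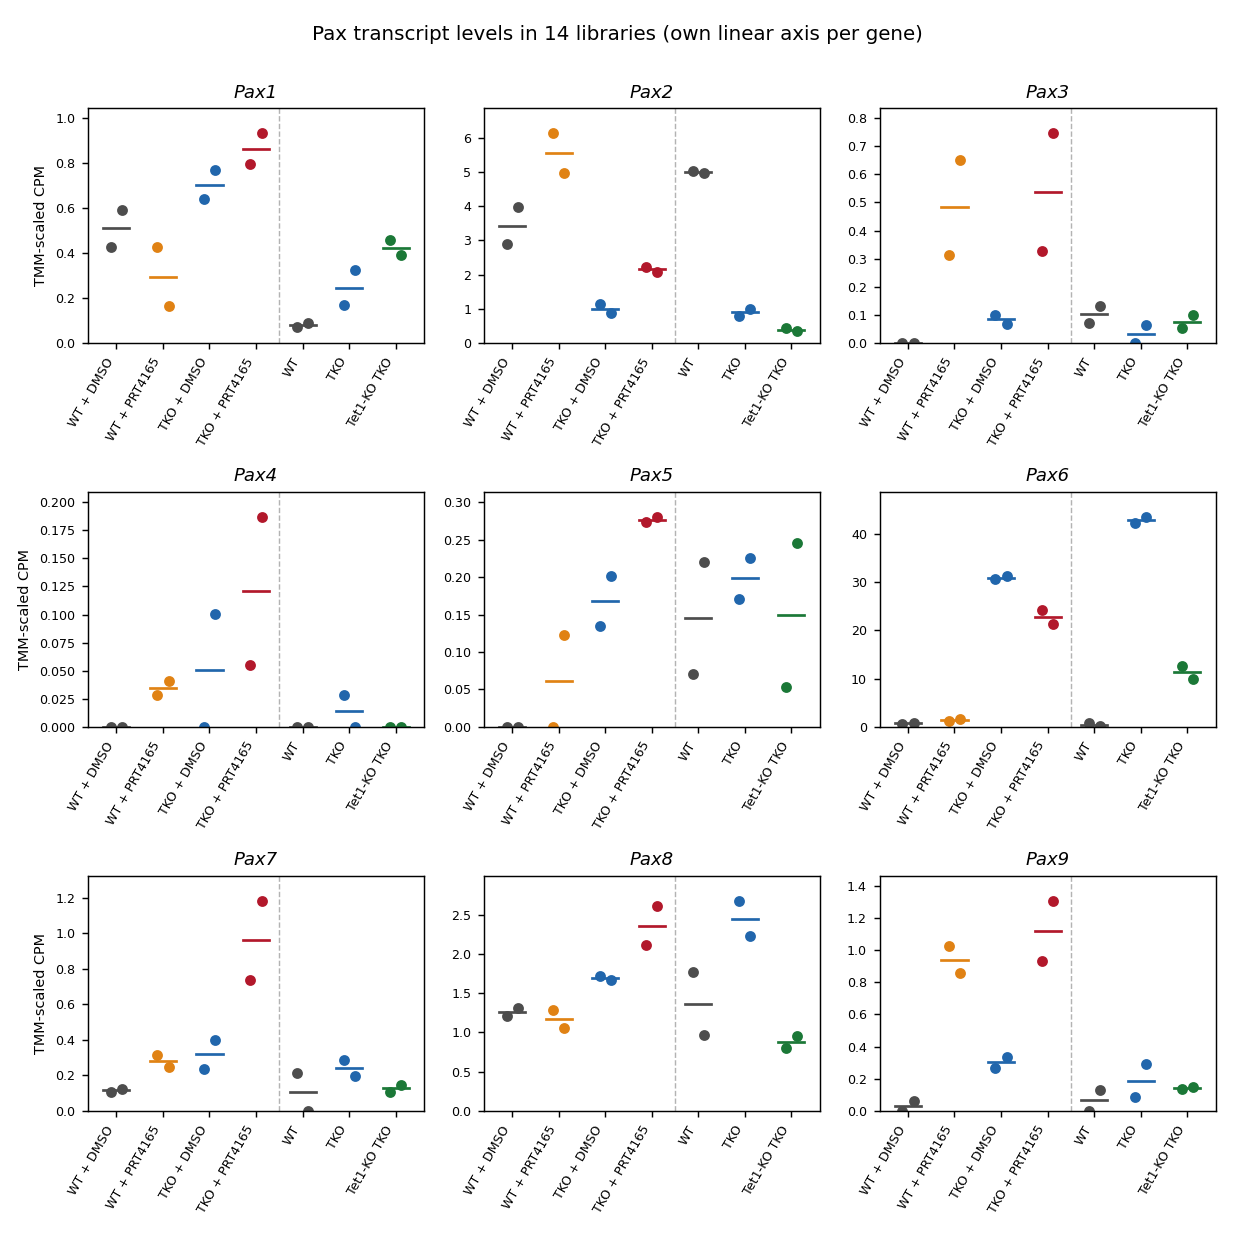
TMM-scaled CPM of the 9 Pax genes in each of the 14 libraries; points are libraries, bars the mean of 2, and the dashed line parts the 2 experiments, whose levels were scaled separately. Pax6 lies at 21.4 to 43.4 CPM in Dnmt-TKO libraries with intact Tet1 and under 2 CPM in all wild-type libraries, while Pax3 and Pax9 are highest in libraries given PRT4165.

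Changes were tested with edgeR's quasi-likelihood test, adjusted by Benjamini-Hochberg over all genes tested and called at an adjusted p under 0.05. In the first experiment 7 members passed the filter on low counts and Pax4 and Pax5 did not, and in the second experiment Pax1, Pax2, Pax6 and Pax8 passed. Pax3, Pax7 and Pax9 were below the cutoff in wild-type cells given DMSO and entered through other groups, as Pax1 did in the second experiment. Pax6 also entered the second experiment through other groups, since its wild-type libraries had 20 and 4 reads, the latter under the cutoff. The counts over members are therefore given as description alone. So are the p-values and calls of Pax3, Pax7 and Pax9, and of Pax1 and Pax6 in the second experiment, against the groups that let them in.

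Between Dnmt-TKO and wild-type cells given DMSO, Pax3, Pax6 and Pax9 rose and Pax2 fell among 7 tested, where 34.8% of all tested genes rose and 34.2% fell. Between the same genotypes in the second experiment Pax6 and Pax8 rose and Pax2 fell, against 25.9% and 24.3% of genes. The inhibitor raised Pax2, Pax3, Pax6 and Pax9 in wild-type cells and lowered none, where 19% of genes rose and 18.7% fell, and in Dnmt-TKO cells it raised Pax2, Pax3, Pax7 and Pax9 and lowered Pax6, against 19.9% and 19.6%. Set against wild-type cells with DMSO, Dnmt-TKO cells with the inhibitor were higher in 5 members, Pax3 and Pax6 to Pax9, and lower in Pax2, where 39.6% of genes were higher and 36.7% lower. Of the 7 members tested for a difference in response to the inhibitor between genotypes, Pax6 alone was called, in the direction taken by 2.12% of genes, while 1.77% went the other way. Loss of Tet1 on the Dnmt-TKO background lowered Pax2, Pax6 and Pax8 and raised none, where 11.6% of genes rose and 10.4% fell. Against wild-type cells, Tet1-KO Dnmt-TKO cells were higher in Pax1 and Pax6 and lower in Pax2, with 26.3% and 24.4% of genes called.

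**Figure D2:**
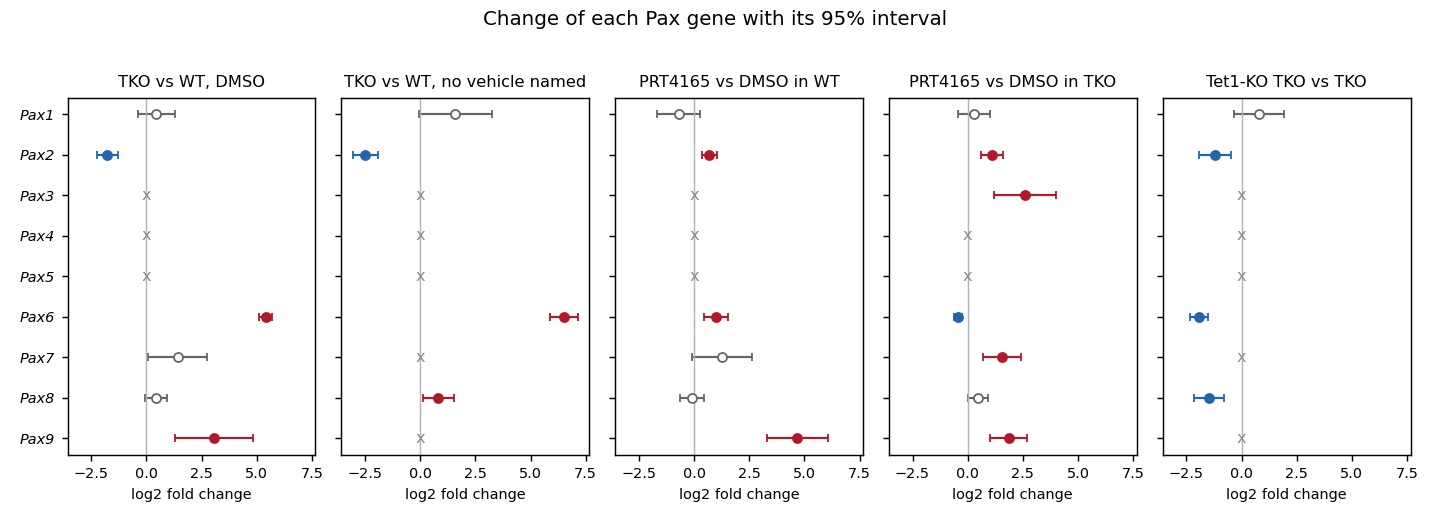
Log2 fold change of each Pax gene in 5 comparisons, with its 95% interval from the edgeR quasi-likelihood fit. Red points were called higher, blue points lower, and open points were not called; a grey x marks a gene below the filter, or Pax3 against a group with no reads. Pax6 lies farthest to the right in both comparisons of Dnmt-TKO with wild-type cells and to the left of 0 on loss of Tet1.

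Pax6, the regulator of eye, forebrain and endocrine pancreas formation, changed most between genotypes. It gave 16 and 28 reads (0.572 and 0.871 CPM) in wild-type cells with DMSO and 910 and 934 reads (30.6 and 31.3 CPM) in Dnmt-TKO cells with DMSO. The groups did not overlap, and the scaled ratio of summed counts was 42.3, with a 95% counting interval of 31.4 to 58.4. In the fit the log2 difference was 5.40 (SE 0.15, edgeR adjusted p = 4.44e-20). In the second experiment the wild-type libraries held 0.706 and 0.176 CPM and the Dnmt-TKO libraries 42.3 and 43.4 CPM, a log2 difference of 6.51 (SE 0.29, edgeR adjusted p = 1.35e-08). These values are per library, and the wild-type replicates of the second experiment differ more between themselves, at 20 and 4 reads, than the Dnmt-TKO replicates do. Without the first of them the log2 difference was 7.89 and without the second 5.92. Pax6 entered the tests of the second experiment through the other groups, so its p-value against wild-type cells there is description alone.

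The inhibitor moved Pax6 in opposite directions in the 2 genotypes. In wild-type cells it stood at 1.31 and 1.63 CPM with PRT4165, above both DMSO libraries, a log2 difference of 0.98 (SE 0.26, edgeR adjusted p = 0.00469). Without the first wild-type DMSO library that difference was 0.73 and no longer called (edgeR adjusted p = 0.0625). In Dnmt-TKO cells Pax6 stood at 24.3 and 21.4 CPM with the inhibitor, below both DMSO libraries, and the log2 difference was -0.43 (SE 0.08, edgeR adjusted p = 0.000182). The difference between these responses was -1.41 on the log2 scale (SE 0.27, edgeR adjusted p = 0.00307).

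Loss of Tet1 lowered Pax6 from 1488 and 1346 reads to 472 and 408 reads, and the groups did not overlap. On the log2 scale this was a difference of -1.92 (SE 0.19, edgeR adjusted p = 5.46e-05). The Tet1-KO libraries were still above both wild-type libraries, by 4.59 on the log2 scale (SE 0.31, edgeR adjusted p = 2.02e-07), and by 5.97 without the first wild-type library. The neural ectoderm markers summed to 113 and 115 CPM in wild-type cells with DMSO and 188 and 196 in Dnmt-TKO cells with DMSO. In the second experiment they summed to 110 and 111 in wild-type cells, 168 and 173 in Dnmt-TKO cells and 145 in both Tet1-KO libraries. Of 5 markers tested there, 1 rose and 2 fell on loss of Tet1, where 11.6% of all genes rose and 10.4% fell. Of the 7 markers in the tables, 6 were tested and 5 rose in Dnmt-TKO cells given DMSO, led in level by Tubb3, where 34.8% of all tested genes rose. Dcx, a marker of young neurons, averaged at most 0.101 CPM in any group and was at 0 in wild-type cells of both experiments given no inhibitor. The part of the neural signal in the Pax6 values was not tested.

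Pax2 acts in kidney and ear formation and Pax8 in thyroid and kidney, and Pax5, their relative, is the B-lymphocyte factor. Pax2 gave 2.89 and 3.98 CPM in wild-type cells with DMSO and 1.14 and 0.87 CPM in Dnmt-TKO cells with DMSO, and in the second experiment 5.05 and 4.99 CPM in wild-type and 0.796 and 1.00 CPM in Dnmt-TKO cells. Every wild-type library was above every Dnmt-TKO library. The log2 differences were -1.78 (SE 0.23, edgeR adjusted p = 2.79e-07) and -2.48 (SE 0.27, edgeR adjusted p = 1.33e-05). Pax2 and Pax6 thus moved in opposite directions with the genotype in both experiments.

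With the inhibitor Pax2 reached 6.13 and 4.97 CPM in wild-type cells, 0.70 higher on the log2 scale (SE 0.17, edgeR adjusted p = 0.0022), and without the first of these libraries the difference was 0.52 and not called (edgeR adjusted p = 0.0781). In Dnmt-TKO cells it reached 2.22 and 2.08 CPM, 1.09 higher than with DMSO (SE 0.25, edgeR adjusted p = 0.00103), and the 2 responses were not shown to differ, with an interval of the difference from -0.23 to 1.02. Dnmt-TKO cells with the inhibitor stayed 0.68 below wild-type cells with DMSO (SE 0.19, edgeR adjusted p = 0.00272). That call was lost without the second wild-type DMSO library, at -0.43 (edgeR adjusted p = 0.106). In the Tet1-KO libraries Pax2 had 0.430 and 0.344 CPM, below Dnmt-TKO cells by a log2 difference of -1.21 (SE 0.33, edgeR adjusted p = 0.0217), and leaving out any of the 4 libraries concerned gave edgeR adjusted p-values of 0.0516 to 0.148. Against wild-type cells the difference was -3.69 (SE 0.29, edgeR adjusted p = 8.57e-07).

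Pax8 ranked 2 or 3 in level per kilobase in every group. It gave 1.21 and 1.31 CPM in wild-type cells with DMSO, 1.28 and 1.06 with the inhibitor, 1.72 and 1.67 in Dnmt-TKO cells with DMSO and 2.11 and 2.61 with the inhibitor. The wild-type groups overlapped. No single-factor comparison of the first experiment was called, with 95% intervals of the log2 difference of -0.08 to 0.93 for the genotype with DMSO, -0.63 to 0.45 for the inhibitor in wild-type cells and 0.03 to 0.91 in Dnmt-TKO cells. Genotype and inhibitor together gave 0.89 (SE 0.22, edgeR adjusted p = 0.000987). In the second experiment Pax8 gave 1.76 and 0.971 CPM in wild-type, 2.67 and 2.23 in Dnmt-TKO and 0.805 and 0.957 CPM in Tet1-KO Dnmt-TKO cells. The rise in Dnmt-TKO cells was at the threshold, 0.82 on the log2 scale (SE 0.32, edgeR adjusted p = 0.0484), and was not called with DESeq2 or without 4 of the 6 libraries in turn (edgeR adjusted p = 0.0506 to 0.258, DESeq2 adjusted p = 0.114). The fall on loss of Tet1 was -1.47 (SE 0.32, edgeR adjusted p = 0.00691), and without the first Dnmt-TKO library it was not called (edgeR adjusted p = 0.0582).

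Pax5 stayed under the filter. It had no read in wild-type cells with DMSO, 0 and 3 with the inhibitor, 4 and 6 in Dnmt-TKO cells with DMSO and 10 and 9 with the inhibitor. Against the limit of 3 reads, Dnmt-TKO cells were at least 3.37-fold higher with DMSO and at least 5.55-fold higher with the inhibitor, and the lower counting limits of these ratios were 2.26 and 4.09. Pax5 in the second experiment had 2 and 5, 6 and 7, and 2 and 10 reads in wild-type, Dnmt-TKO and Tet1-KO Dnmt-TKO cells, and in CPM all 3 groups overlapped.

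Pax3 and Pax7 specify neural crest and muscle progenitors, and both were scarce. The inhibitor-treated cells of both genotypes held the most Pax3, and Dnmt-TKO cells given the inhibitor the most Pax7. Pax3 had no read in wild-type cells with DMSO and 11 and 16 reads (0.314 and 0.652 CPM) with the inhibitor, at least 9.09-fold higher when set against 3 reads (edgeR adjusted p = 0.000297), with a lower counting limit of the ratio of 6.90. Dnmt-TKO cells gave 3 and 2 reads with DMSO and 12 and 24 with the inhibitor, a ratio of 6.24 with a counting interval of 2.44 to 20.4. In the fit this was 2.60 on the log2 scale (SE 0.69, edgeR adjusted p = 0.00428). That call was lost without the second Dnmt-TKO DMSO library (edgeR adjusted p = 0.0513) or the second inhibitor library (edgeR adjusted p = 0.0946).

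For the genotype under DMSO, 5 Pax3 reads against 0 is 1.68-fold when set against the floor of 3 reads, but the counting interval of the ratio, from 0.925 upwards, includes no change. It was called in the fit at the threshold (edgeR adjusted p = 0.0488) and lost without any of the 4 libraries in turn (edgeR adjusted p = 0.0661 to 0.137). Dnmt-TKO cells with the inhibitor were at least 10.5-fold above wild-type cells with DMSO on the same floor (edgeR adjusted p = 3.06e-05), with a lower counting limit of 8.12. Pax3 lies on chromosome 1, whose genes had a median log2 difference of -0.40 between Dnmt-TKO and wild-type cells given DMSO, where the other autosomes had 0.01, and the part of this in the Pax3 values was not tested. Pax3 had 0 to 4 reads in every library of the second experiment.

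Pax7 gave 0.107 and 0.124 CPM in wild-type cells with DMSO, 0.314 and 0.245 with the inhibitor, 0.236 and 0.402 in Dnmt-TKO cells with DMSO and 0.740 and 1.18 with the inhibitor. The last pair stood above all other libraries. In Dnmt-TKO cells the inhibitor raised it by 1.56 on the log2 scale (SE 0.42, edgeR adjusted p = 0.00432). DESeq2 did not call this change (adjusted p = 0.0509), nor did edgeR without the first Dnmt-TKO DMSO library (adjusted p = 0.0782) or the second inhibitor library (adjusted p = 0.08). In wild-type cells the difference was 1.26 and not called, with an interval from -0.11 to 2.63. The genotype gave 1.42 with DMSO (edgeR adjusted p = 0.0549), and both changes together gave 2.99 (SE 0.51, edgeR adjusted p = 1.34e-05). Pax7 had 0 to 10 reads in the second experiment and was below the filter. In CPM its wild-type libraries, at 0.212 and 0, overlapped both other groups, while Dnmt-TKO libraries, at 0.284 and 0.194, lay above the Tet1-KO libraries, at 0.107 and 0.147.

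Pax9, which with Pax1 patterns the sclerotome and the pharyngeal pouches, was higher with the inhibitor in both genotypes and, with DMSO, in Dnmt-TKO cells. Wild-type cells with DMSO gave 0 and 2 reads, and with the inhibitor 36 and 21 reads (1.03 and 0.856 CPM), a ratio of 28.8 with a counting interval of 7.61 to 243. In the fit the log2 difference was 4.68 (SE 0.67, edgeR adjusted p = 5.43e-06). Dnmt-TKO cells with DMSO gave 0.269 and 0.335 CPM, 9.09 times the wild-type level with a counting interval of 2.18 to 80.8 (edgeR adjusted p = 0.00304), and with the inhibitor 0.931 and 1.31 CPM, 1.86 higher on the log2 scale (SE 0.41, edgeR adjusted p = 0.000753). The size of the Pax9 changes against wild-type cells rested on the 0 and 2 reads there. The log2 difference with the genotype was 2.21 without the first of these libraries and 6.24 without the second, and with the inhibitor 3.85 and 7.88. Pax9 was below the filter's cutoff in wild-type cells with DMSO, so its calls against them are description alone.

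The inhibitor-treated libraries of the 2 genotypes overlapped for Pax9, while the DMSO libraries did not. The difference between the responses was -2.82 on the log2 scale and not called (edgeR adjusted p = 0.0915). Pax9 in the second experiment had 0 and 3 reads in wild-type, 3 and 9 in Dnmt-TKO and 5 and 6 in Tet1-KO Dnmt-TKO cells, with overlap between wild-type and Dnmt-TKO groups.

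Pax1 behaved otherwise. It gave 0.429 and 0.591 CPM in wild-type cells with DMSO, 0.428 and 0.163 with the inhibitor, 0.640 and 0.770 in Dnmt-TKO cells with DMSO and 0.794 and 0.932 with the inhibitor. No comparison of the first experiment was called for it, and the interval of the inhibitor's log2 difference ran from -1.67 to 0.28 in wild-type and from -0.45 to 1.03 in Dnmt-TKO cells. In the second experiment it had 2 and 2 reads in wild-type, 6 and 10 in Dnmt-TKO and 17 and 16 in Tet1-KO Dnmt-TKO cells. The last group was above the first by 2.38 (SE 0.68, edgeR adjusted p = 0.012), and DESeq2 (adjusted p = 0.0766) and edgeR without the first wild-type library (adjusted p = 0.0727) did not call it.

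Pax4, the partner of Pax6 in the pancreas, was at 0 to 6 reads in all 14 libraries. It reached 2 and 6 reads in Dnmt-TKO cells with the inhibitor, at least 2.34-fold above the wild-type DMSO limit of 3 reads, with a lower counting limit of the ratio of 1.49. It gave no read in wild-type or Tet1-KO Dnmt-TKO cells of the second experiment.

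Some exons of 4 members lie opposite those of another gene: Pax1 shares 183 bases with AI646519, Pax5 shares 125 with Gm12462 and 636 with 5730488B01Rik, Pax8 shares 367 with Gm13415 and Pax9 shares 189 with Slc25a21. Whether the counting used strand is not given in the sources used here, so reads of these stretches cannot be told apart by strand. Slc25a21, a protein-coding gene, had 2 and 0 reads in wild-type cells with DMSO and 1 and 3 with the inhibitor. In Dnmt-TKO cells it had 13 and 8 reads with DMSO and 10 and 7 with the inhibitor. The part of shared reads in the Pax9 counts was not tested.

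The nearest protein-coding gene on each side of every member that does not overlap it was followed, 18 in all. Of 17 tested with DMSO, 5 rose and 7 fell in Dnmt-TKO cells, where 34.8% of all genes rose and 34.2% fell. The inhibitor raised 5 and lowered 4 of them in wild-type cells, against 19% and 18.7% of genes. In Dnmt-TKO cells it raised 4 and lowered 3, against 19.9% and 19.6%. Of 15 tested in the second experiment, 3 rose and 3 fell with the genotype, against 25.9% and 24.3%. On loss of Tet1, 2 rose and 1 fell, against 11.6% and 10.4%. These counts lie near the shares over all genes and are description alone. Rcn1, a calcium-binding protein gene next to Pax6, fell in Dnmt-TKO cells where Pax6 rose, by a log2 difference of -1.19 with DMSO (SE 0.05) and -1.13 in the second experiment (SE 0.10), and rose on loss of Tet1 by 0.51 (SE 0.10) where Pax6 fell. Elp4, an Elongator subunit gene on the other side of Pax6, was not called in any comparison. Nkx2-9, a homeobox gene next to Pax9, gave 0.321 and 0.373 CPM in the wild-type libraries with DMSO and 4.27 and 4.35 CPM in the Dnmt-TKO libraries with DMSO (log2 difference 3.61, SE 0.26, edgeR adjusted p = 1.18e-11), and the inhibitor, which raised Pax9, was not called for it in either genotype. Prps1l3, on the other side of Pax9, fell with the inhibitor by a log2 difference of -0.34 in wild-type and -0.31 in Dnmt-TKO cells (SE 0.05 each). Tas1r2, a sweet taste receptor subunit gene next to Pax7, had 0.0357 and 0.0933 CPM in wild-type cells with DMSO and 0.713 and 0.978 with the inhibitor (log2 difference 3.56, SE 0.58, edgeR adjusted p = 3.44e-05), and in Dnmt-TKO cells no read with DMSO and 1.67 and 1.58 CPM with the inhibitor. Pax7 and Tas1r2 were thus both called higher with the inhibitor in Dnmt-TKO cells, and Klhdc7a, on the other side of Pax7, was not. Beside Pax8, which was not called with the genotype under DMSO, Psd4 rose from 6.64 and 6.44 to 15.3 and 15.4 CPM and Cacna1b, a calcium channel gene, from 1.57 and 1.62 to 5.89 and 6.43 CPM. In the second experiment, where Pax8 was called higher, Psd4 rose by 0.70 (SE 0.17) and Cacna1b by 1.02 (SE 0.20) on the log2 scale.

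**Figure D3:**
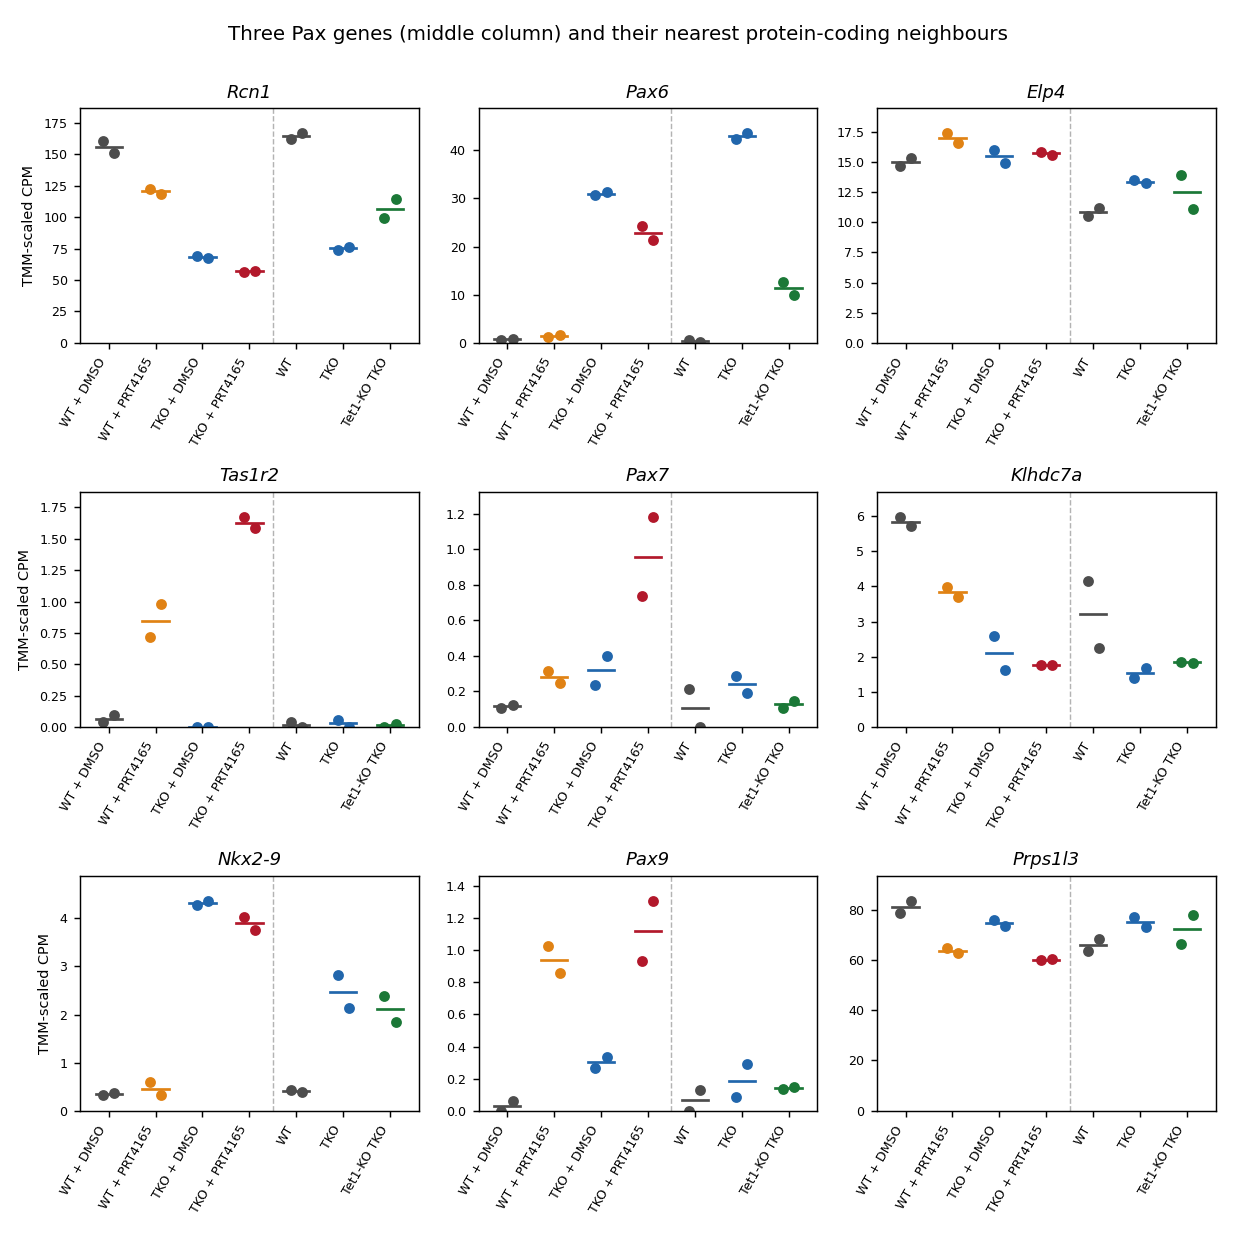
TMM-scaled CPM per library of Pax6, Pax7 and Pax9 (middle column) and the nearest protein-coding gene on each side that does not overlap. Points are libraries, bars the mean of 2, and the dashed line parts the 2 experiments. Rcn1 lies lower and Pax6 higher in Dnmt-TKO cells, Elp4 was called in no comparison, and Tas1r2 is near 0 outside the libraries given PRT4165.

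Genes that act with Pax proteins were taken from 8 lists of 99 genes in all, of which 98 are in the tables. Of 82 tested in the first experiment, 50 rose and 13 fell between Dnmt-TKO and wild-type cells with DMSO, with a median log2 difference of 1.40 where all genes had 0.01 and 34.8% of them rose and 34.2% fell. The inhibitor raised 33 and lowered 3 in wild-type cells (median 0.46), where 19% of all genes rose and 18.7% fell, and raised 26 and lowered 9 in Dnmt-TKO cells (median 0.16), where 19.9% rose and 19.6% fell. Of 65 tested in the second experiment, 36 rose and 10 fell with the genotype (median 0.95), against 25.9% and 24.3% of all genes. Loss of Tet1 raised 7 and lowered 8 (median -0.12), shares near the 11.6% and 10.4% over all genes. Some listed genes, such as Neurog2 with no read in wild-type cells with DMSO, passed the filter only through groups where they are high. The list counts are therefore description alone.

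Most tested partners of Pax6 were higher in Dnmt-TKO cells, as were those of several other lists. Over all tested genes, 34.8% rose and 34.2% fell with the genotype under DMSO, and 25.9% and 24.3% in the second experiment. Of 11 tested eye and neural partners 8 rose and none fell with DMSO, among them Otx2, a forebrain factor, from 3.27 ± 0.23 to 12.3 ± 0.28 CPM, and Sox11 from 1.97 ± 0.55 to 8.26 ± 0.54 CPM (mean ± SD, n = 2). Of 9 tested endocrine pancreas partners 8 rose and none fell, among them Insm1, a zinc-finger factor of endocrine cells, with a log2 difference of 5.56 (SE 0.26, edgeR adjusted p = 1.88e-15), Isl1 with 4.24 (SE 0.51) and Neurod1 with 2.42 (SE 0.25). In the second experiment 5 rose and 1 fell of 9 tested eye and neural partners, and 4 rose and 1 fell of 6 tested endocrine partners. Insm1 also carried the Pax6 pattern with the inhibitor, higher by 1.55 in wild-type and lower by a log2 difference of -0.35 in Dnmt-TKO cells. Its interaction was -1.91 (SE 0.48, edgeR adjusted p = 0.0246). The wild-type side rests on few and uneven reads, 12 and 3 with DMSO against 22 and 22 with the inhibitor. The interaction was also called for Isl1 and Neurod1, at -2.61 and -1.14, but Neurod1 rose with the inhibitor in both genotypes and Isl1 was not called in Dnmt-TKO cells. On loss of Tet1, Neurod1 fell by 1.63 and Insm1 fell by 0.60 on the log2 scale, while Meis2 and Lhx2 rose.

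Among 15 tested kidney, thyroid and midbrain-hindbrain partners of Pax2, Pax5 and Pax8, 11 rose and 2 fell with the genotype under DMSO, where Pax2 fell. Over all tested genes, 34.8% rose and 34.2% fell. Gata3, a factor of the kidney duct that trophoblast also expresses, rose by 3.96 on the log2 scale (SE 0.13, edgeR adjusted p = 3.64e-18) and En2, a midbrain-hindbrain factor, by 3.06 (SE 0.11, edgeR adjusted p = 4.76e-18). The inhibitor raised 7 of these partners in wild-type and 6 in Dnmt-TKO cells, and lowered 1 in each. Tshr, the thyrotropin receptor, was higher by 3.29 and 4.26 (SE 0.40 and 0.35). Over all tested genes, 19% rose and 18.7% fell with the inhibitor in wild-type cells, and 19.9% and 19.6% in Dnmt-TKO cells. Of the 8 tested B-lineage partners of Pax5, 5 rose with the genotype and none fell, against the same 34.8% and 34.2%. Ikzf1, the lymphoid factor Ikaros, had 1 read in each wild-type library with DMSO (0.033 ± 0.003 CPM). In Dnmt-TKO cells with DMSO it had 41 and 36 reads (1.29 ± 0.12 CPM).

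Among 12 tested neural crest and muscle progenitor partners of Pax3 and Pax7, 8 rose and 3 fell with the genotype under DMSO. Over all tested genes, 34.8% rose and 34.2% fell. Tfap2a was higher by 3.12 (SE 0.25) on the log2 scale, and Foxd3, which ES cells also express, was lower at 47.9 ± 0.99 against 99.9 ± 6.7 CPM. The inhibitor raised 4 of these partners and lowered 1 in wild-type cells. In Dnmt-TKO cells, where it raised Pax3 and Pax7, it raised 2 of them and lowered 3, with a median log2 difference of -0.03. Over all tested genes, 19% rose and 18.7% fell with the inhibitor in wild-type cells, and 19.9% and 19.6% in Dnmt-TKO cells. Of the 10 sclerotome and pharyngeal partners of Pax1 and Pax9, the inhibitor raised 5 and lowered 1 in wild-type cells and raised 5 in Dnmt-TKO cells. Uncx, a sclerotome homeobox gene, rose by 4.16 (SE 0.45) and 3.51 (SE 0.32), and Tbx1, a pharyngeal T-box factor, by 2.91 (SE 0.32) and 1.98 (SE 0.20). With the genotype under DMSO, 5 of the 10 rose and 2 fell, with a median log2 difference of 1.93. Tbx18 rose by 2.66 (SE 0.43), Tbx1 by 2.27 (SE 0.35) and Col2a1, a cartilage collagen gene, by 1.80 (SE 0.15), while Bmp4, a secreted signal, fell by 2.76 (SE 0.06, edgeR adjusted p = 3.86e-22).

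The general partners of Pax proteins were more mixed, where 34.8% of all tested genes rose and 34.2% fell with the genotype under DMSO. Of the 10 tested Eya, Dach and SIX-homeobox genes, which act with Pax genes in a common network, 3 rose and 2 fell with the genotype, and Eya1, a transcriptional coactivator, went from 9.09 ± 0.68 to 2.63 ± 0.20 CPM (mean ± SD, n = 2). Of the 7 cofactors that bind Pax proteins, 2 rose and 4 fell, among them Tle1, a Groucho corepressor, with a log2 difference of 0.40 (SE 0.06) and Paxbp1 with -0.37 (SE 0.06).

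**Figure D4:**
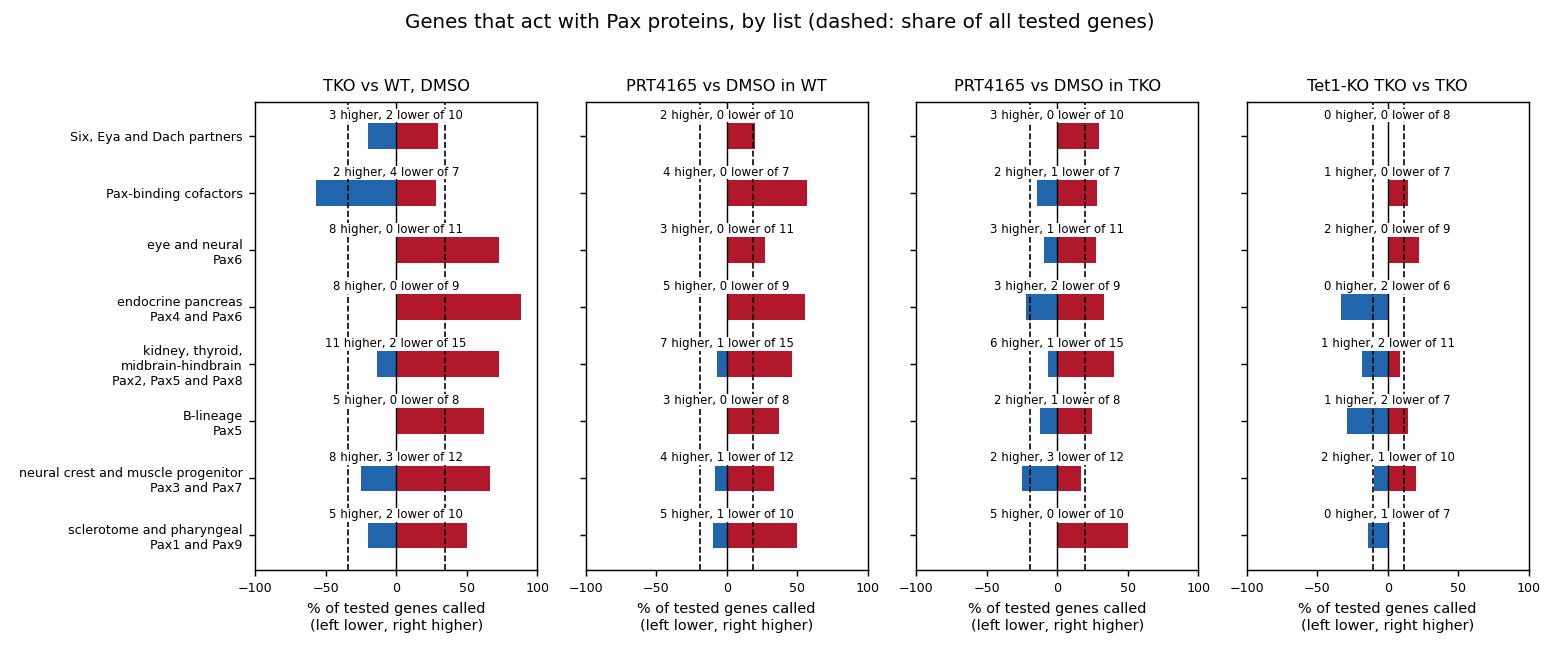
Share of the tested genes of each partner list that were called higher (right, red) or lower (left, blue) in 4 comparisons, with the counts above each bar; dashed lines mark the share of all tested genes called in that direction. With DMSO, the endocrine pancreas list has 8 of 9 tested genes higher in Dnmt-TKO cells and the list of Pax-binding cofactors has 4 of 7 lower.

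Likeness of pattern was measured as the root mean square difference of log2 CPM, centred within each experiment, over the 14 libraries and 14058 genes. Nearest to Pax6 were Nxf3 (0.397), Xlr4b (0.452) and Pof1b (0.546), all on the X chromosome, of which Xlr4b has near-identical copies and is uncertain. Nxf3 had 0.365 ± 0.011 CPM in wild-type and 11.3 ± 1.6 in Dnmt-TKO cells with DMSO, but the inhibitor left it at 0.369 ± 0.003 CPM in wild-type cells, where Pax6 rose. Nearest to Pax2 were Dnah2 (0.321), Tppp3 (0.324) and Grk3 (0.335), nearest to Pax8 were Prr19 (0.175), Dnah8 (0.216) and Srl (0.233), and among those nearest to Pax1 were Cdkl4 (0.280) and Pllp (0.284). These are descriptions over libraries that share their groups.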

How the data were processed

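Poly(A) RNA of 14 libraries was measured as reads per gene. Per the submitters' processing notes, TopHat2 2.0.2, Bowtie 0.12.8 and HTSeq 0.5.3p9 were used with mouse build mm9; no source at hand gives parameters or the strand setting. The values are raw counts as deposited by the authors, in 2 tables, each fitted on its own. Gene symbols and exon lengths came from GENCODE M21, matching 32919 of 37991 identifiers.

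Genes were kept by filterByExpr (minimum count 10, minimum total 15), leaving 16711 and 16303, and tested with edgeR 4.0.16 (R 4.3.3) by the quasi-likelihood F-test with TMM scaling, two-sided and with Benjamini-Hochberg adjustment, all groups of a table in 1 fit. The method was tested on simulated data. Floors are 3 counts per group, and intervals of summed counts are exact and cover counting error only. DESeq2 1.42.0, other scalings, no filter, fewer groups, a replicate block and each library left out were tried. All 9 members are reported in every comparison, and from each partner list up to 3 called genes per direction and comparison with the smallest p among those whose libraries do not overlap, of which the text gives examples. The members and lists were chosen with earlier results of these data known. Some genes that this rule names are not reported here.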

Additional observations from a re-analysis of the deposited data

Results flagged for a closer look

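The response of Pax6 to the inhibitor differed between the genotypes by a test of the difference itself. The log2 difference between Dnmt-TKO and wild-type responses was -1.41 (edgeR adjusted p = 0.00307). Over 13 alternatives it ran from -1.77 to -1.16, with adjusted p-values of 9.19e-05 to 0.0415, and was called in each. Pax6 was higher with the inhibitor in both wild-type libraries and lower in both Dnmt-TKO libraries.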

How the results depend on the processing

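Over the alternatives tried, 593 results for single Pax genes stayed on their side of the threshold, 24 lost the call and 5 gained it. Of called changes 0 reversed, while the values of Pax7 for the interaction and of Pax8 for the inhibitor in wild-type cells, neither called, changed sign under some alternatives (down to -0.06 and up to 0.02). Pax members called numbered 3 in place of 5 for the inhibitor in Dnmt-TKO cells without the second inhibitor library, and 1 in place of 3 on loss of Tet1 without the first Dnmt-TKO library. Calls over all genes for the interaction numbered 650, against 415 with DESeq2 and 298 to 882 with a library left out, and for loss of Tet1 3584, against 1595 to 4496 with a library left out. The cause was not tested, apart from fewer samples. Scaling by library size alone moved the median of all genes by 0.15 between Dnmt-TKO and wild-type cells with DMSO and by 0.14 with genotype and inhibitor together. It changed the share of calls that were higher from 50.5% to 63.5% in the former and from 52.9% to 40.6% on loss of Tet1, and it added calls for Pax7 and Pax8 with the genotype and Pax1 with genotype and inhibitor together (adjusted p = 0.0357, 0.0391 and 0.0415). With the replicate number as a block no Pax call changed: Pax6 differed by 5.40 with the genotype under DMSO, and all genes called on loss of Tet1 numbered 4498. Across genes, the difference between replicates 1 and 2 of a group was correlated with that of each other group. The correlations were -0.03 to 0.04 in the first experiment and 0.11 to 0.24 in the second. Same-numbered libraries share only a number. Without a filter Pax5 was called higher in Dnmt-TKO than wild-type cells with DMSO (adjusted p = 0.0089), and Pax4 was not (adjusted p = 0.275). Depth limits Pax3, Pax4, Pax5, Pax7 and Pax9 most, since several groups held fewer than 10 reads per library.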
